A study of Danio rerio with 6 samples.

Results

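Translation initiation and elongation factors are the proteins that load ribosomes onto messenger RNA and move them along it. In the deposited table of zebrafish (Danio rerio) genes, 79 of 31624 rows carried a symbol in lower case that begins with eif1 to eif6 or with eef1 or eef2, and these genes are described here. The symbol alone decides which genes belong, while the choice of these factors as a subject was made with earlier results of these data known. By name, 64 are initiation factors or genes named after one, and 15 are elongation factors or genes named after one, so the set also holds proteins that bind or modify a factor, such as the eIF2 kinases, the eIF4E-binding proteins and the eEF2 kinase. All but 1 of them, 78, had enough reads to be tested, of 20555 genes tested in all. The gene left out was eif4e1b, which had 2, 1 and 0 reads in the 3 knockout libraries, against 1, 1 and 2 reads in the 3 control libraries.

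RNA from zebrafish embryos was sequenced in 6 libraries, 3 of the genotype labelled Trdmt1 knockout and 3 of the genotype labelled wildtype, which served as the control group. Trdmt1, also called Dnmt2, is an RNA methyltransferase that acts on transfer RNAs, and the study set out to examine its function in this fish. The strain, the age of the embryos, the kind of allele, whether the knockout embryos had knockout mothers, and whether replicate libraries were made from different clutches are not given in the sources used here. The p-values therefore measure the spread between these libraries only, which may be technical.

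Initiation begins when eIF2, carrying GTP and the initiator transfer RNA, joins the small ribosomal subunit together with eIF1, eIF1A, eIF3 and eIF5, while the eIF4 factors bring in the capped end of the messenger RNA. After the start codon is found, eIF5B helps the large subunit to join, and eEF1A then delivers each aminoacyl transfer RNA while eEF2 moves the ribosome by a codon at a time. Both ends of the pathway are regulated: phosphorylated eIF2 blocks its own recycling by eIF2B, unphosphorylated 4E-BPs withhold eIF4E from the cap, and eEF2 kinase slows elongation by phosphorylating eEF2. These controls act on proteins, whereas the values below are levels of transcripts.

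Reads counted in genes totalled 15573104, 16085068 and 15191166 in knockouts 1, 2 and 3, against 18708152, 18721589 and 12877132 in controls 1, 2 and 3. Levels are given as RPKM, the deposited read count scaled to exonic length and library total. The trdmt1 transcript stood at 1.59, 1.40 and 1.07 RPKM in knockouts 1, 2 and 3, against 3.10, 2.60 and 1.08 RPKM in controls 1, 2 and 3, a difference within the spread between libraries (log2 fold change -0.70, standard error 0.38, edgeR adjusted p = 0.746), so it does not check the genotype labels. Knockouts 1 and 2 were nearly alike, their counts over genes differing by a chi-square of 1.58 for each degree of freedom, against 11.7 to 75.6 for the other 14 pairs. Knockout 3 stood apart. Of the marker lists used here, all 7 listed genes of rod photoreceptors summed to 18.2, 18.8 and 363 RPKM in knockouts 1, 2 and 3, against 26.5 to 52.4 RPKM in the controls. The 8 of 9 listed genes of exocrine pancreas that were matched summed to 14.6, 11.8 and 148 RPKM in the knockouts, against 10.3 to 20.5 RPKM in the controls. The 4 of 5 hatching gland genes that were matched summed to 321, 333 and 180 RPKM in the knockouts, against 202 to 339 RPKM in the controls. Knockout 3 was thus high in rod and pancreas genes and low in hatching gland genes, and no marker was at 0 in all 6 libraries. Skeletal muscle markers, 14 of 14 matched, summed to between 38636 and 38833 RPKM in the knockouts, against 35788 to 44107 RPKM in the controls. Leukocyte markers, 8 of 8 matched, summed to 166, 162 and 72.9 RPKM in knockouts 1, 2 and 3, against 120 to 164 RPKM in the controls. Of these 8 genes, 1 differed between the groups at an edgeR adjusted p under 0.05, as 0.117% of all tested genes did. The other genes of this list did not pass, and their sum lay below all controls in knockout 3 alone, so the call does not stand for the list. No gene of the other marker lists passed. Neuron markers, 11 of 12 matched, summed to between 608 and 773 RPKM in the knockouts, against 623 to 745 RPKM in the controls.

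None of the 78 tested factor genes differed between knockout and control embryos at an adjusted p under 0.05 (edgeR quasi-likelihood test, Benjamini-Hochberg adjustment over all genes tested). Of all genes tested, 24 passed, which is 0.117%, with 21 higher (0.102%) and 3 lower (0.0146%). The lowest adjusted p of any factor gene was 0.555. At an unadjusted p under 0.05 there were 3 factor genes, or 3.85% of them, against 7.47% of all genes. All 3 were higher in the knockouts, where the share over all genes was 4.06%, and 0 were lower, against 3.41% of all genes. A further eIF1 gene, EIF1B, is left out of these counts only because its symbol is in capitals. It was lower in the knockouts at an unadjusted edgeR p of 0.0091, smaller than that of any factor gene (0.0195 at the lowest). DESeq2 in place of edgeR also passed 0 factor genes, with 4 at an unadjusted p under 0.05, and each of the other alternatives, with libraries left out included, passed 0 as well. That background varied with the library left out. Without knockout 3, 165 genes were higher and 41 lower, without control 1, 7 and 1, without control 2, 0 and 0 (956 genes at an unadjusted p under 0.05), and without control 3, 4 and 0. Without knockout 1 the counts were 20 and 1, and without knockout 2 they were 17 and 0.

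The fold changes of the factor genes were small. They ran from -0.47 (eif1axa) to 0.54 (eif3s6ip) on the log2 scale, so none reached a log2 fold change of 1 in either direction, as 3.17% of all tested genes did. Their 95% intervals, which are not adjusted for the number of genes, lay within 2-fold in both directions for 74 of the 78 genes, or 94.9%, against 70.5% of all tested genes. The 4 genes with wider intervals were eif1axa, eef1a1b, eef1a2 and eef2a.2. Knockouts 1 and 2 enter all intervals as separate replicates although they were nearly alike, so the intervals may be too narrow. With knockouts 1 and 2 summed, the log2 fold changes of the factor genes ran from -0.57 to 0.59. Among genes with a mean of at least 10 RPKM, where counting error is smaller, the interval lay within 2-fold for 59 of 60 factor genes, against 6078 of 6726 genes in the table. A tighter limit of 1.5-fold in both directions held the intervals of 42 factor genes, 53.8%, against 30% of all genes. At a mean of at least 10 RPKM the shares were closer, at 34 of 60 factor genes against 3487 of 6726 genes.

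**Figure D1:**
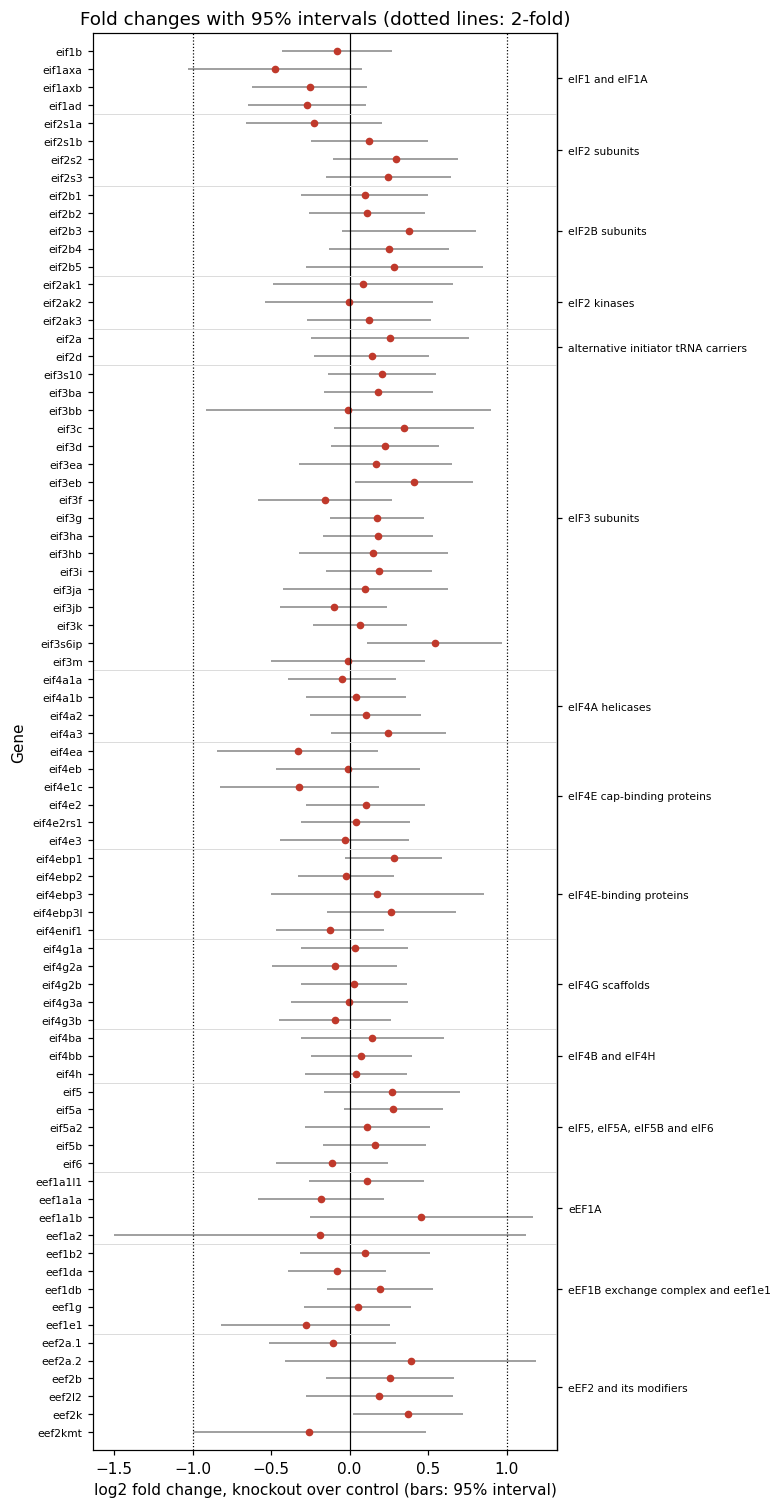
Log2 fold change of each of the 78 tested factor genes, knockout over control (horizontal axis), with genes down the page grouped by role; points are edgeR estimates from 3 libraries per group and bars are unadjusted 95% intervals. The bars of 74 genes stay between the dotted lines at 2-fold, and those of eif3s6ip, eif3eb and eef2k are the only ones clear of 0.

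The median log2 fold change of the factor genes was 0.10, against a median of -0.0038 over all tested genes, and 51 of 78 (65.4%) had a positive value, against 49.5% of all genes. This median was 0.10 for the 63 tested initiation genes and 0.099 for the 15 elongation genes. The median moved with the libraries left out: without control 2 the median was 0.032 with 47 genes positive, and with any other library left out it lay between 0.066 and 0.16. Without control 2, 0 factor genes stood at an unadjusted p under 0.05.

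**Figure D2:**
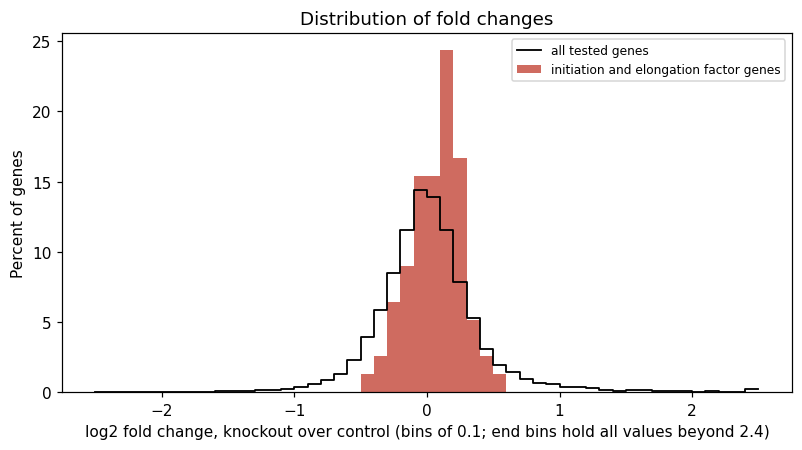
Percent of genes (vertical axis) in bins of log2 fold change, knockout over control (horizontal axis), for the 78 tested factor genes (filled) and all 20555 tested genes (line). The factor genes lie between -0.47 and 0.54, with a median of 0.10.

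The factor genes with the smallest p were all higher in value in the knockout libraries. The gene eif3s6ip (ENSDARG00000101082), which encodes the eIF3 subunit now called eIF3l, stood at 104, 107 and 113 RPKM in knockouts 1, 2 and 3, against 78.1, 58.7 and 91.9 RPKM in controls 1, 2 and 3. All knockout libraries lay above all controls, and the control values were the more scattered, with control 2 the lowest. The means were 108 ± 4.68 RPKM in knockouts and 76.2 ± 16.7 RPKM in controls (SD, n = 3 each). The fitted log2 difference was 0.54 (standard error 0.19), with a 95% interval of 0.11 to 0.97 (edgeR adjusted p = 0.555). With any library left out the difference lay between 0.38 and 0.72, and without control 2 the edgeR adjusted p was 0.976.

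The second was eif3eb (ENSDARG00000002549), the minor copy of the gene for subunit e of eIF3, at 9.03, 10.02 and 10.5 RPKM in knockouts 1, 2 and 3, against 8.23, 6.82 and 7.85 RPKM in controls 1, 2 and 3. Its groups did not overlap, but the gap between the highest control and the lowest knockout was under 1 RPKM. Its log2 fold change was 0.41 (standard error 0.17, 95% interval 0.033 to 0.78, edgeR adjusted p = 0.635).

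The third was eef2k (ENSDARG00000035835), the kinase that inhibits eEF2, at 37.5, 37.2 and 46.8 RPKM in knockouts 1, 2 and 3, against 32.5, 29.9 and 34.0 RPKM in controls 1, 2 and 3. All knockout libraries again lay above all controls, with knockout 3 the highest of the 6. The log2 fold change was 0.37 (standard error 0.15, 95% interval 0.022 to 0.72, edgeR adjusted p = 0.643). Without knockout 3 the log2 fold change of eef2k was 0.26.

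By RPKM, all 3 knockout libraries lay above all 3 controls in 9 of the 78 genes, or 11.5%, against 6.3% of all tested genes. The 9 were eif3d, eif3eb, eif3g, eif3s6ip, eif4a3, eif4ebp1, eif5a, eif5b and eef2k. On TMM-scaled counts, which correct for the composition of each library, 7 remained (8.97%, against 7.62% of all genes), and eif3d and eif5b no longer separated. All knockouts lay below all controls in 1 gene on either scale, eif1ad, which is 1.28% against 9% of all genes by RPKM and 7.44% on TMM-scaled counts. In RNA of embryos, fewer cells of a type and less RNA per cell cannot be told apart.

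All 4 genes placed by name in the eIF1 and eIF1A group had a negative log2 fold change, with a median of -0.26, and none passed the test. By library, the median of these 4 genes relative to the control mean was -0.16, -0.13 and -0.53 on the log2 scale in knockouts 1, 2 and 3, against 0.029, 0.061 and -0.10 in controls 1, 2 and 3. Knockout 3 was thus the farthest from the controls, and knockouts 1 and 2 were close to control 3. The gene eif1b, which encodes a form of eIF1, the factor that guards against wrong start codons, was the most abundant of them at 263, 259 and 276 RPKM in knockouts 1, 2 and 3, against 245, 309 and 314 RPKM in controls 1, 2 and 3. Knockouts lay inside the range of the controls (log2 fold change -0.082, 95% interval -0.43 to 0.27). The eIF1A genes, whose product holds the small subunit open for scanning together with eIF1, had more negative fold changes still. The gene eif1axa stood at 35.7, 32.7 and 21.8 RPKM in knockouts 1, 2 and 3, against 57.1, 37.0 and 34.7 RPKM in controls 1, 2 and 3. Knockout 3 was the lowest library and control 1 the highest, and knockout 1 overlapped the controls (log2 fold change -0.47, standard error 0.25, edgeR adjusted p = 0.733). Its log2 fold change was the most negative of the set with all 6 libraries, but was -0.29 without knockout 3, where that of eef1a2 was lower at -0.83, and -0.21 without control 1. Summed over eif1axa and eif1axb, eIF1A stood at 123.6, 123.05 and 90.3 RPKM in knockouts 1, 2 and 3, against 161, 147 and 123.88 RPKM in controls 1, 2 and 3, so that the nearest knockout and control almost touched. The remaining gene, eif1ad, whose protein shares the domain of eIF1A, stood at 16.8, 16.9 and 12.9 RPKM in knockouts 1, 2 and 3, against 19.7, 20.5 and 17.7 RPKM in controls 1, 2 and 3 (log2 fold change -0.27, edgeR adjusted p = 0.763). Without knockout 3 the log2 fold change was -0.15 for eif1ad, and for eif1axb it was -0.14, against -0.25 with it. A gene just outside the rule, written EIF1B in capitals in the table, encodes a further eIF1 and had a negative fold change too. Its reads and those of eif1b may be shared where the copies are alike. It stood at 117, 119 and 93.5 RPKM in knockouts 1, 2 and 3, against 163, 162 and 152 RPKM in controls 1, 2 and 3, with all knockouts below all controls (log2 fold change -0.49, standard error 0.15, edgeR adjusted p = 0.439), and it too did not pass. The values of eif1axa, eif1axb, eif1ad and EIF1B were singled out after they were seen.

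Among the subunits of eIF2, which carries the initiator transfer RNA, 3 of 4 genes had a positive log2 fold change, and the median was 0.19. Subunit alpha, the one phosphorylated under stress, is encoded by 2 genes. The gene eif2s1b was the more abundant copy, at 145, 145 and 109.9 RPKM in knockouts 1, 2 and 3, against 135, 115 and 126 RPKM in controls 1, 2 and 3. The groups overlapped, since knockout 3 was the lowest library of all by RPKM, though control 2 was slightly lower on TMM-scaled counts. The other copy, eif2s1a, stood at 50.7, 51.7 and 35.0 RPKM in knockouts 1, 2 and 3, against 64.1, 48.8 and 52.6 RPKM in controls 1, 2 and 3, again with knockout 3 lowest. Log2 fold changes were 0.13 for eif2s1b (95% interval -0.25 to 0.50) and -0.23 for eif2s1a (95% interval -0.66 to 0.20). Both moved with the library left out: eif2s1b was 0.25 without knockout 3 and 0.060 without control 2 or knockout 1, and eif2s1a was -0.067 without knockout 3 and -0.10 without control 1. The sum of both copies was 196, 196.5 and 145 RPKM in the knockouts, against 199, 164 and 179 RPKM in the controls. Subunits beta (eif2s2) and gamma (eif2s3) had log2 fold changes of 0.29 and 0.25, or 0.16 and 0.12 without control 2.

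All 5 genes for eIF2B, the exchange factor that recharges eIF2 with GTP, had a positive log2 fold change, from 0.10 to 0.38 with a median of 0.25. None passed the test, and in none did the knockouts lie above all controls. Control 2 was the lowest library for all 5, with group medians relative to the control mean of 0.22, 0.16 and 0.39 in knockouts 1, 2 and 3, against 0.096, -0.28 and 0.14 in controls 1, 2 and 3. Without control 2 the log2 fold change of eif2b3 was 0.24, against 0.38 with it. Their levels were modest, at most 31.2 RPKM in any library. The value of eif2b5, which encodes the catalytic subunit, rested on knockout 3: it stood at 12.1, 11.2 and 21.2 RPKM in knockouts 1, 2 and 3, against 13.2, 10.9 and 13.3 RPKM in controls 1, 2 and 3, and without knockout 3 its log2 fold change was -0.060.

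The 3 genes of the set for kinases that phosphorylate eIF2 were expressed at low levels and showed no difference larger than the spread. No gene carried the symbol eif2ak4, so the eIF2 kinase that senses uncharged transfer RNA is not covered. The gene eif2ak1, for the haem-regulated kinase, stood at 8.81, 8.92 and 5.78 RPKM in knockouts 1, 2 and 3, against 10.4, 6.09 and 6.28 RPKM in controls 1, 2 and 3. The gene eif2ak2, for the kinase activated by double-stranded RNA, stood at 2.23, 2.13 and 2.14 RPKM in knockouts 1, 2 and 3, against 2.79, 2.09 and 1.80 RPKM in controls 1, 2 and 3. The gene eif2ak3, for the kinase PERK of the endoplasmic reticulum, stood at 7.16, 7.29 and 10.1 RPKM in knockouts 1, 2 and 3, against 7.67, 7.29 and 8.13 RPKM in controls 1, 2 and 3. Their groups overlapped in each case, and the log2 fold changes were 0.085, -0.0026 and 0.12, with 95% intervals of -0.49 to 0.66, -0.54 to 0.53 and -0.27 to 0.52. The proteins that can bring the initiator transfer RNA without eIF2, from eif2a and eif2d, had log2 fold changes of 0.26 and 0.14. In eif2a that value rested on knockout 3, at 14.5, 13.8 and 22.5 RPKM in knockouts 1, 2 and 3, against 17.2, 12.4 and 13.8 RPKM in controls 1, 2 and 3, and without knockout 3 it was 0.0052.

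Factor eIF3, the largest initiation factor and the scaffold of the complex on the small subunit, was represented by 17 genes, of which 13 had a positive log2 fold change. The median was 0.18 and the range ran from -0.16 (eif3f) to 0.54 (eif3s6ip). Of these 17 genes, 2 (11.8%) stood at an unadjusted p under 0.05, against 7.47% of all genes. In 4 (23.5%) all knockouts lay above all controls by RPKM, against 6.3% of all genes, and in 3 (17.6%) on TMM-scaled counts, against 7.62%. The subunits are built into 1 complex, yet their transcripts differed in level by library in unlike ways. The most abundant, eif3f, stood at 334, 337 and 218 RPKM in knockouts 1, 2 and 3, against 353, 342 and 324 RPKM in controls 1, 2 and 3, and its negative log2 fold change of -0.16 came with a low value in knockout 3. Likewise eif3m stood at 260.3, 278 and 163 RPKM in knockouts 1, 2 and 3, against 265, 212 and 247 RPKM in controls 1, 2 and 3, with a log2 fold change of -0.0093. In eif3ea, the major copy for subunit e, the values were 316, 327 and 224 RPKM in the knockouts, against 288, 203 and 299 RPKM in the controls. Here knockout 3 and control 2 were the low libraries of their groups, and the log2 fold change was 0.17 (95% interval -0.32 to 0.65), or 0.0057 without control 2 and 0.32 without knockout 3. The gene eif3c, for a core subunit, went the other way in knockout 3, at 99.3, 105 and 154 RPKM in knockouts 1, 2 and 3, against 93.8, 89.2 and 106 RPKM in controls 1, 2 and 3. Beside knockouts 1 and 2, then, knockout 3 was low for eif3f, eif3m and eif3ea, and high for eif3c, which was picked out after its values were seen. For each of eif3f and eif3m the log2 fold change turned positive without knockout 3, at 0.023 and 0.20. That of eif3c was 0.13 without knockout 3, against 0.35 with it.

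**Figure D3:**
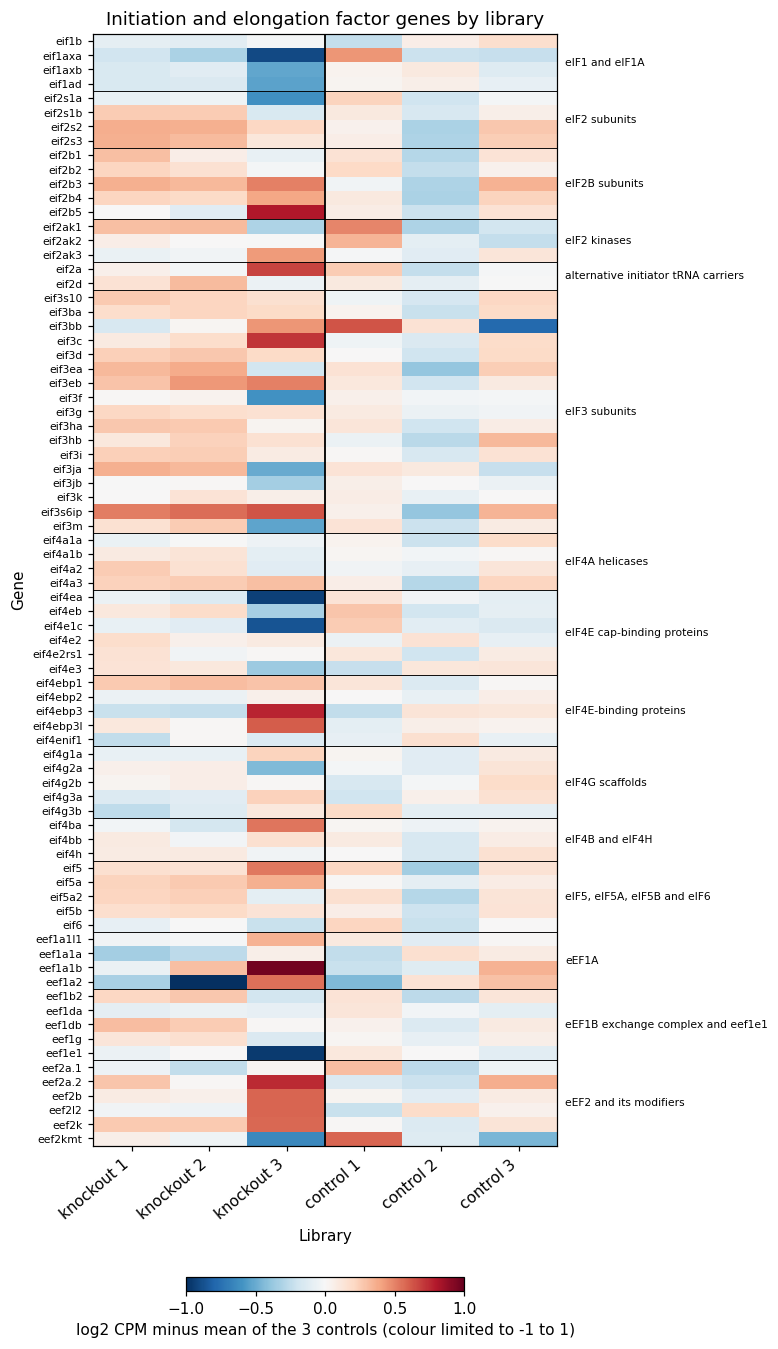
Level of each of the 78 tested factor genes (rows, grouped by role) in each of the 6 libraries (columns), drawn as the difference in log2 CPM to the control mean; red is above and blue below the control mean, and the colour scale is limited to between -1 and 1. Knockout 3 holds the strongest colours of both kinds, knockouts 1 and 2 look alike, and control 2 is blue in most rows.

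The eIF4A helicase genes, and those named after the scaffold eIF4G, had intervals that held 0 and lay within 2-fold. The helicase genes eif4a1a, eif4a1b and eif4a2, whose products unwind the leader of the message, and eif4a3, whose product belongs to the exon junction complex, had log2 fold changes between -0.049 and 0.25. The most abundant of them, eif4a1b, stood at 258, 265 and 227 RPKM in knockouts 1, 2 and 3, against 254, 251 and 245 RPKM in controls 1, 2 and 3, with means of 250.1 ± 19.97 RPKM in knockouts and 249.7 ± 4.79 RPKM in controls (SD, n = 3 each) and a log2 fold change of 0.041 (95% interval -0.28 to 0.36). In eif4a3 all knockouts lay above all controls, and its log2 fold change of 0.25 had a 95% interval of -0.12 to 0.61. The 5 genes named after eIF4G, the scaffold that joins cap, helicase and ribosome, were as a group the nearest to 0. Their log2 fold changes ran from -0.095 to 0.031, and every one of the 5 intervals lay within 1.5-fold. That role at the cap is not meant for each of the 5 genes. The helicase partners eIF4B and eIF4H, from 3 genes, had log2 fold changes of 0.14 or less.

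The cap-binding eIF4E genes had log2 fold changes on both sides of 0, with 2 of 6 positive and a median of -0.022. The main copy by level was eif4e1c, at 49.3, 47.8 and 28.5 RPKM in knockouts 1, 2 and 3, against 63.9, 50.7 and 46.7 RPKM in controls 1, 2 and 3. Knockout 3 was again the lowest library, and control 1 the highest (log2 fold change -0.32, standard error 0.22, 95% interval -0.83 to 0.19, edgeR adjusted p = 0.79). Without knockout 3 it was -0.11, and without control 1 it was -0.18. The gene eif4e1b, which in zebrafish is known from the gonads and the early embryo, was at 0.14, 0.07 and 0 RPKM in the knockouts, against 0.06, 0.06 and 0.16 RPKM in the controls, near or at the limit of detection in each library. A count of 0 in knockout 3 allows up to 3 reads. Germ cell and oocyte markers, 8 of 8 matched, summed to between 2.38 and 3.15 RPKM in the knockouts, against 2.78 to 4.55 RPKM in the controls.

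The binding proteins that hold eIF4E back, the 4E-BPs, are encoded by 4 of the genes. The most abundant, eif4ebp2, stood at 88.4, 87.9 and 95.7 RPKM in knockouts 1, 2 and 3, against 95.5, 92.3 and 95.9 RPKM in controls 1, 2 and 3, with a log2 fold change of -0.023 (95% interval -0.33 to 0.28). The gene eif4ebp1 stood at 43.7, 45.0 and 44.5 RPKM in knockouts 1, 2 and 3, against 41.0, 35.0 and 36.7 RPKM in controls 1, 2 and 3. All its knockout values exceeded all its control values, with very even knockouts, and the log2 fold change was 0.28 (standard error 0.14, 95% interval -0.029 to 0.59, edgeR adjusted p = 0.715). The remaining copies were high in knockout 3 alone. The gene eif4ebp3l stood at 32.4, 30.2 and 46.0 RPKM in knockouts 1, 2 and 3, against 29.1, 32.9 and 30.8 RPKM in controls 1, 2 and 3, with a log2 fold change of 0.26, or 0.059 without knockout 3. The gene eif4ebp3 stood at 4.71, 4.64 and 9.44 RPKM in knockouts 1, 2 and 3, against 4.79, 6.34 and 5.95 RPKM in controls 1, 2 and 3. Knockouts 1 and 2 were just below every control by RPKM, but control 1 was the lowest library on TMM-scaled counts. Without knockout 3 the log2 fold change of eif4ebp3 was -0.24, against 0.18 with it. The gene eif4enif1, for the transporter 4E-T that carries eIF4E into the nucleus, had a log2 fold change of -0.12.

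The late initiation factors were led by eif5a, whose product carries hypusine and helps ribosomes through difficult peptide bonds, at 329, 336 and 360.5 RPKM in knockouts 1, 2 and 3, against 293, 279 and 296 RPKM in controls 1, 2 and 3. This gene was number 5 by level among the 79, its groups did not overlap, and the means were 342 ± 16.6 RPKM in knockouts and 289 ± 8.98 RPKM in controls (SD, n = 3 each). The log2 fold change was 0.28 (standard error 0.14, 95% interval -0.036 to 0.59, edgeR adjusted p = 0.725), so the test was not passed. Together with its paralog eif5a2, eIF5A summed to 492.04, 501 and 492.09 RPKM in the knockouts, against 455, 400.1 and 449 RPKM in the controls. The genes eif5, for the activator of the GTPase of eIF2, and eif5b, for the GTPase that joins the subunits, had log2 fold changes of 0.27 and 0.16. The gene eif6, whose product keeps the ribosomal subunits apart, had a value of -0.11.

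The most abundant transcripts of the set were those of elongation factors. The gene eef1a1l1 (ENSDARG00000020850), the main zebrafish gene for eEF1A, made up 22.3% of the summed RPKM of all 79 genes, and with eef1g and eef2b it made up 43.7%. Its level was 2002, 2034 and 2615 RPKM in knockouts 1, 2 and 3, against 2268, 2002 and 2065 RPKM in controls 1, 2 and 3. Knockouts 1 and 2 lay at the level of the controls and knockout 3 above all of them. The log2 fold change was 0.11 (standard error 0.16, 95% interval -0.26 to 0.48, edgeR adjusted p = 0.903), and without knockout 3 it was -0.025.

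The other eEF1A genes were minor. The gene eef1a1a stood at 9.75, 10.3 and 13.0 RPKM in knockouts 1, 2 and 3, against 10.8, 14.6 and 13.1 RPKM in controls 1, 2 and 3. The gene eef1a1b stood at 2.11, 2.74 and 4.38 RPKM in knockouts 1, 2 and 3, against 1.95, 2.14 and 2.83 RPKM in controls 1, 2 and 3, with the highest value in knockout 3 and a wide 95% interval of -0.25 to 1.16; the log2 fold change was 0.46, or 0.12 without knockout 3. The gene eef1a2, which in mammals is the form of adult muscle and neurons, was under 1 RPKM in every library, with 0.25, 0.12 and 0.52 RPKM in the knockouts, against 0.24, 0.39 and 0.42 RPKM in the controls. At 4 to 16 reads per library its interval of -1.50 to 1.12 spans a difference of 2-fold in either direction, so a change of that size was not detectable at this depth.

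The exchange complex eEF1B, which recharges eEF1A with GTP, was led by eef1g, the gene for its gamma subunit, at 1153, 1177 and 960.2 RPKM in knockouts 1, 2 and 3, against 1107, 1055 and 1101 RPKM in controls 1, 2 and 3. Knockout 3 was the lowest library here, while knockouts 1 and 2 were the highest (log2 fold change 0.05, 95% interval -0.29 to 0.39). Its nucleotide-exchanging subunit from eef1b2 stood at 313, 325 and 239 RPKM in knockouts 1, 2 and 3, against 308, 238 and 294 RPKM in controls 1, 2 and 3, with knockout 3 and control 2 low (log2 fold change 0.10). The delta subunit genes eef1da and eef1db had log2 fold changes of -0.081 and 0.19. The gene eef1e1, whose product belongs to the multi-synthetase complex despite its name, stood at 51.3, 53.6 and 27.6 RPKM in knockouts 1, 2 and 3, against 59.5, 56.4 and 49.5 RPKM in controls 1, 2 and 3, and this gene was singled out after its values were seen. Without knockout 3 its log2 fold change was -0.030, against -0.28 with it.

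Translocation factor eEF2 came almost wholly from eef2b, at 940.1, 917 and 1333 RPKM in knockouts 1, 2 and 3, against 936, 867 and 938 RPKM in controls 1, 2 and 3. Knockouts 1 and 2 lay within the range of the controls or just above it, and knockout 3 stood far above. The means were 1063 ± 234 RPKM in knockouts and 914 ± 40.1 RPKM in controls (SD, n = 3 each), and the log2 fold change was 0.26 (95% interval -0.15 to 0.66, edgeR adjusted p = 0.79); without knockout 3 it was 0.063. The related gene eef2l2 stood at 65.9, 65.0 and 101 RPKM in knockouts 1, 2 and 3, against 59.6, 80.5 and 69.2 RPKM in controls 1, 2 and 3, with the same high knockout 3. The gene eef2a.1 stood at 12.5, 10.9 and 13.2 RPKM in knockouts 1, 2 and 3, against 16.6, 11.3 and 12.5 RPKM in controls 1, 2 and 3, and its groups overlapped. The gene eef2a.2 was close to the limit of detection at 0.58, 0.47 and 0.82 RPKM in knockouts 1, 2 and 3, against 0.44, 0.42 and 0.61 RPKM in controls 1, 2 and 3. The gene eef2kmt, for the methyltransferase that modifies eEF2, ranged from 1.89 to 3.10 RPKM in the knockouts, against 2.14 to 4.62 RPKM in the controls.

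**Figure D4:**
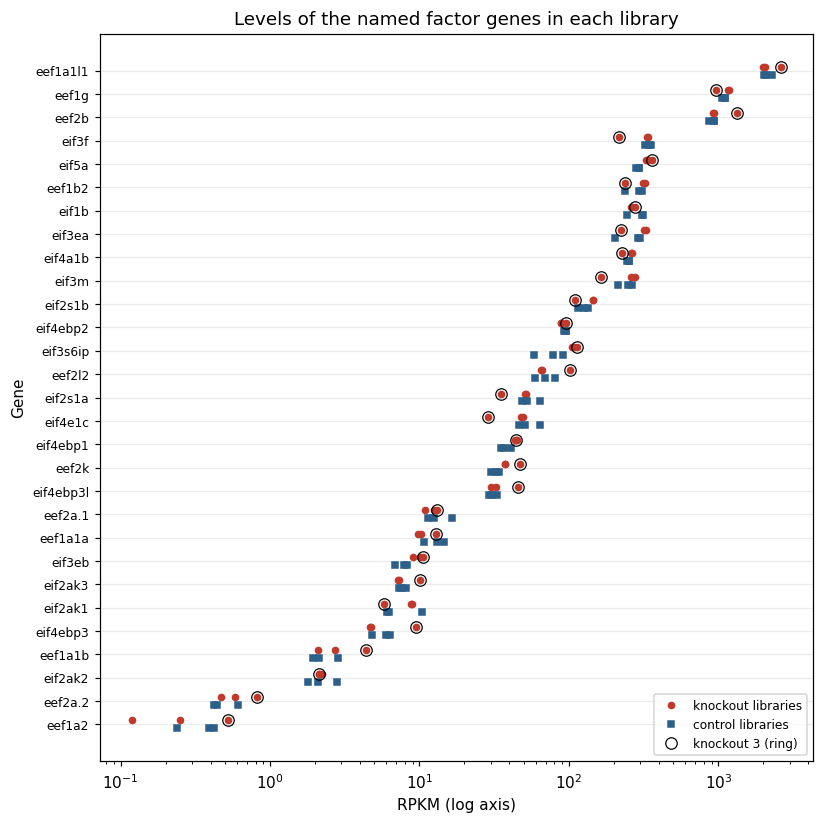
RPKM on a log axis (horizontal) of 29 tested genes given library by library in the text (down the page, by mean level), in each knockout library (circles) and each control library (squares), with knockout 3 ringed. Levels run from under 1 RPKM for eef1a2 and eef2a.2 to at least 2002 RPKM for eef1a1l1, and the ringed point is often the farthest from the rest.

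Many zebrafish factors exist as paired copies, and the share of each copy was compared in 15 families of 36 genes. Copies of nearly the same sequence can share reads, so these shares depend on how the counting placed such reads. The gene eef1a1l1 gave 99.2% to 99.4% of the summed RPKM of eEF1A in every library, and eef2b gave 90.4% to 92.4% of that of eEF2. Groups did not overlap in 2 of the 15 families, which are named because of that. For the levels of single genes by RPKM, knockouts lay above all controls in 6.3% of all tested genes and below all in 9%. No such background was worked out for shares, so the count of 2 families is not a result about them. In both families, an exact 2-sided permutation test of the share gave p = 0.1, the smallest it can give with 3 libraries per group. These p-values are not adjusted for the 15 families, so the test cannot show that a share differed. The share of eif2s1b in eIF2 alpha was 74.1%, 73.7% and 75.8% in knockouts 1, 2 and 3, against 67.8%, 70.2% and 70.6% in controls 1, 2 and 3. The share of eif4eb in eIF4E was 7.30%, 7.93% and 9.28% in the knockouts, against 6.76%, 6.12% and 6.69% in the controls. The level of eif4eb itself had a log2 fold change of -0.012, against -0.32 for eif4e1c and -0.33 for eif4ea. For eIF2 alpha the mean share of eif2s1b was 74.6% ± 1.12 in the knockouts and 69.6% ± 1.53 in the controls (SD, n = 3 each), while the sum over both copies overlapped between groups.

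**Figure D5:**
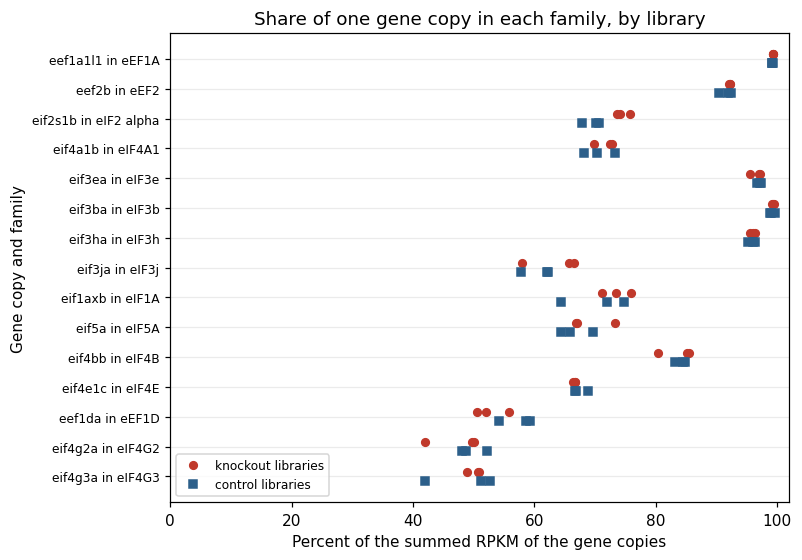
Percent of the summed RPKM of a family's gene copies that 1 copy provides (horizontal axis), for 15 families (down the page), in each knockout library (circles) and each control library (squares). In eIF2 alpha the eif2s1b circles, at 73.7% to 75.8%, lie right of the squares, at 67.8% to 70.6%; eif4eb is not drawn.

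Seen by library, the 79 genes took 2.35%, 2.37% and 2.57% of the reads of knockouts 1, 2 and 3, against 2.39%, 2.15% and 2.34% of the reads of controls 1, 2 and 3. Initiation genes summed to 5004, 5046 and 4539.8 RPKM in the knockouts, against 4830.1, 4317 and 4858 RPKM in the controls. Elongation genes summed to 4828, 4871 and 5572 RPKM in the knockouts, against 5049, 4584 and 4802 RPKM in the controls. The ratio of elongation to initiation RPKM was therefore 0.965, 0.965 and 1.23 in the knockouts, against 1.05, 1.06 and 0.989 in the controls. Knockout 3 had both the lowest initiation sum of its group and the highest elongation sum of all libraries.

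The spread of the factor genes within the knockout group came mostly from this library. Between knockouts 1 and 2 the median absolute log2 difference of the 78 genes was 0.042, against 0.10 for all genes. Between knockout 3 and each of the other 5 libraries it was 0.23 to 0.34, against 0.39 to 0.45 for all genes. Knockout 3 was the highest or the lowest library for 44 genes, 56.4%, against 61.9% of all genes. It lay at least 0.5 on the log2 scale above the control mean for 16 genes, 20.5% against 18.9% of all genes, and at least 0.5 below it for 11 genes, 14.1% against 20.5%. Those above included eef1a1b, eif2b5, eif3c, eef2b and eef2k, and those below included eef1e1, eif4ea, eif4e1c, eif3f and eif1axa. These are the libraries' values beside the raised rod and pancreas marker sums given above, and the part of those cells in the factor genes was not tested.

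Control 2 stood out for these genes more than for the table as a whole. It was the lowest of the 6 libraries for 42 of the 78 factor genes, against 17.4% of all genes, and both other controls lay above it in 54 genes, 69.2% against 33% of all genes. Of the 42 genes, 35 were among the 63 tested initiation genes and 7 among the 15 elongation genes. The 35 included 12 of the 17 genes for eIF3 subunits. Knockouts 1 and 2 both lay above all controls in 25 genes, 32.1% against 16.6% of all genes, and both below all controls in 3, which is 3.85% against 15.9%. These shares compare libraries and carry no test.

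Genes outside the rule that act with the factors were taken from lists chosen by known role, with earlier results of these data known. Of 86 listed symbols 72 were matched and tested, and 2 of them rose in the knockouts at an adjusted p under 0.05 (0.102% of all genes did), atf3 and cebpb, while 0 were lower (0.0146% of all genes). At an unadjusted p under 0.05 there were 15 of the 72, against 7.47% of all genes. Both called genes belong to the list of eIF2 phosphatase subunits and the program of ATF4, the transcription factor whose translation increases when eIF2 is phosphorylated. Whether ATF4 or phosphorylated eIF2 had a part in the rise of atf3 and cebpb was not tested. In this list 12 of 13 genes had a positive log2 fold change, with a median of 0.68, and all knockouts lay above all controls in 10, as they did in 6.3% of all genes. The groups overlapped in the rest, which were asns, psat1 and phgdh. Their log2 fold changes were 0.27, 0.30 and -0.088 (edgeR adjusted p = 0.814, 0.822 and 0.949).

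The gene atf3, a transcription factor induced by stress, stood at 30.9, 31.4 and 46.2 RPKM in knockouts 1, 2 and 3, against 8.67, 6.05 and 6.61 RPKM in controls 1, 2 and 3. It rose by 2.38 on the log2 scale (standard error 0.22, edgeR adjusted p = 0.0143), without overlap of the groups. The call was lost without control 2 (adjusted p = 0.247) and without control 3 (adjusted p = 0.107), and was kept in the other 11 alternatives. The rise itself lay between 2.17 and 2.56 on the log2 scale with any library left out. The gene cebpb, also a transcription factor, stood at 153, 148 and 222 RPKM in knockouts 1, 2 and 3, against 51.7, 26.2 and 38.2 RPKM in controls 1, 2 and 3, a rise of 2.21 (standard error 0.27, edgeR adjusted p = 0.0266). Its call was lost without control 1 (adjusted p = 0.068), control 2 (0.247) or control 3 (0.192), and was kept in the other 10 alternatives, while the rise lay between 1.99 and 2.47 with any library left out. The gene ppp1r15a, for the stress-induced subunit that directs a phosphatase to eIF2, stood at 47.0, 47.9 and 40.9 RPKM in knockouts 1, 2 and 3, against 21.2, 23.3 and 30.1 RPKM in controls 1, 2 and 3, with no overlap. Its log2 fold change of 0.90 did not pass (edgeR adjusted p = 0.16), but passed without knockout 3 (adjusted p = 0.0231) and with DESeq2 (adjusted p = 0.00171), the other alternatives lying between 0.0768 and 0.727. Both settings passed more of all genes, 0.985% and 1.14%, against 0.117% in the main fit. The former keeps only knockouts 1 and 2, which were nearly alike. The gene atf4a itself stood at 235, 223 and 218 RPKM in the knockouts, against 192, 171 and 199.8 RPKM in the controls (log2 fold change 0.30, edgeR adjusted p = 0.712). A further 5 genes of this list stood at an unadjusted p under 0.05 without passing (edgeR adjusted p from 0.225 to 0.547). Their log2 fold changes were 0.66 for ppp1r15b, the constitutive phosphatase subunit, 0.68 for ddit3, a transcription factor also called CHOP, 0.83 for trib3, a pseudokinase, 0.73 for chac1, an enzyme that degrades glutathione, and 0.74 for sesn2, an inhibitor of mTOR complex 1. With DESeq2 trib3 passed (adjusted p = 0.0149), the other alternatives lying between 0.0926 and 0.725.

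Among 27 genes of cap and poly(A) partners and of mTOR signalling, 18 had a positive log2 fold change, with a median of 0.11, and 0 passed. The largest values were those of mknk2b and mknk1, for kinases that phosphorylate eIF4E. A further gene for such a kinase, mknk2a, had a log2 fold change of 0.36 with overlapping groups (edgeR adjusted p = 0.827). The gene mknk1 stood at 12.3, 11.9 and 6.99 RPKM in knockouts 1, 2 and 3, against 4.43, 6.33 and 6.21 RPKM in controls 1, 2 and 3, a log2 fold change of 0.92 (edgeR adjusted p = 0.34). It passed without knockout 3 (adjusted p = 0.0122), the lowest of the knockout libraries for this gene, and the other alternatives lay between 0.0537 and 0.914. Leaving out knockout 3 keeps only the nearly alike knockouts 1 and 2, and 0.985% of all genes then passed, against 0.117% with all 6 libraries. The gene mknk2b stood at 28.6, 30.4 and 61.1 RPKM in knockouts 1, 2 and 3, against 19.1, 21.0 and 22.9 RPKM in controls 1, 2 and 3, with knockout 3 the highest (log2 fold change 0.97, edgeR adjusted p = 0.397), and without knockout 3 its log2 fold change was 0.53. The gene ddit4, an inhibitor of mTOR complex 1, stood at 17.7, 19.0 and 19.2 RPKM in knockouts 1, 2 and 3, against 16.0, 9.02 and 8.96 RPKM in controls 1, 2 and 3 (log2 fold change 0.76, edgeR adjusted p = 0.462). The gene larp4ab, for an RNA-binding protein of the La-related family, was the only lower gene of this list at an unadjusted p under 0.05. It stood at 8.35, 8.51 and 6.60 RPKM in knockouts 1, 2 and 3, against 10.6, 11.2 and 9.63 RPKM in controls 1, 2 and 3 (log2 fold change -0.38, edgeR adjusted p = 0.622). The mtor gene itself had a log2 fold change of 0.22, and pabpc1a, for the poly(A)-binding protein that eIF4G contacts, had one of 0.23. Of the 6 initiation helpers, which include the reinitiation proteins from denr and mcts1, 0 passed, and the largest log2 fold change was 0.50 for gcn1, the activator of the eIF2 kinase that senses uncharged transfer RNA. This gene stood at 16.6, 15.5 and 24.7 RPKM in knockouts 1, 2 and 3, against 14.7, 12.7 and 13.7 RPKM in controls 1, 2 and 3, and without knockout 3 its log2 fold change was 0.27.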

How the data were processed

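The 6 libraries, 3 per genotype, came from RNA of zebrafish embryos; per the labels' protocols, RNA with an integrity number above 7 was used with the NEBNext Ultra RNA kit. Per the submitters' processing notes, Trimmomatic 0.30, HISAT2 2.0.1, HTSeq 0.6.1, DESeq and build Zv9 were used, with no settings; strand use is not given, so antisense and overlapping genes cannot be separated. The authors deposited whole-number read counts per gene and library, not normalized, and, per the file headers, RPKM values and exonic lengths. Deposited RPKM equal counts over length and library total within 0.0050. Another 6 columns of per-sample values, of no sample studied here, were left aside. The table has symbols and no coordinates.

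Counts were filtered with filterByExpr, scaled by TMM and compared by the robust quasi-likelihood test of edgeR 4.0.16 under R 4.3.3, without covariates, with Benjamini-Hochberg adjustment over 20555 genes and a threshold of 0.05. Standard errors come from the F statistic and 95% intervals from the quasi-likelihood degrees of freedom. Log2 CPM used a prior count of 2. Levels are RPKM as mean and SD of 3 libraries; intervals and floors cover counting error and library spread only. The set and all lists were chosen with earlier results of these data known. Values in each library are given for factor genes at an adjusted or unadjusted p under 0.05, genes with an absolute log2 fold change of at least 1, the 10 with the highest mean RPKM, and, by role, the genes of eIF2 alpha, eIF2 kinases, 4E-BPs, eif4e1b, eif4e1c, eEF1A, eEF2 and eef2k; genes named outside this rule were singled out after their values were seen. Alternatives were no filter, a mean of at least 2 RPKM, DESeq2 size factors, DESeq2 1.42.0, a replicate block, each library left out, knockouts 1 and 2 summed, and the trend with exonic length removed. The procedure was tested on simulated data in which every library was drawn independently. That test therefore does not cover libraries as alike as knockouts 1 and 2.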

Additional observations from a re-analysis of the deposited data

How the results depend on the processing

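Over the 13 alternatives, 0 factor genes were called, and their median log2 fold change stayed positive, from 0.032 to 0.16. Library totals limit precision mainly for eef1a2, eef2a.2 and eif3bb; these and trdmt1 were not fitted at a mean of at least 2 RPKM. Over the whole table, genes called higher, 21, were 47 with no filter, 188 with DESeq2 and 0 to 165 with a library left out. Genes called lower, 3, were 6 with no filter, 46 with DESeq2, 1 with the replicate block, 0 with knockouts 1 and 2 summed, and 0 to 41 with a library left out. Related genes called higher, 2, were 4 with DESeq2 and 0 to 4 with a library left out. The cause was not tested. Libraries of the same number did not deviate together (correlations of -0.00015, -0.059 and -0.035 across genes), so no sign of pairing by number was seen. With knockouts 1 and 2 nearly alike, these correlations cannot exclude a pairing. The block called 17 genes higher, and 0 factor genes.

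Of 804 values of 62 named genes, 36 changed sign, in 18 genes. Log2 fold changes with a turned sign were -0.0072 for eif2ak1 with knockouts 1 and 2 summed; 0.0094 (no filter), 0.0029 (mean of at least 2 RPKM), 0.0094 (DESeq2 size factors), 0.0075 (DESeq2) and 0.019 (replicate block) for eif2ak2; and 0.0014 (no filter), 0.00024 (DESeq2 size factors), 0.00024 (DESeq2) and 0.050 (length trend removed) for eif3m. With a library left out, the ranges that crossed 0 were -0.18 to 0.0064 for eif1b, -0.058 to 0.38 for eif2ak1, -0.11 to 0.20 for eif2ak2, -0.051 to 0.21 for eif2ak3, -0.26 to 0.023 for eif3f, -0.15 to 0.20 for eif3m, -0.0038 to 0.11 for eif4a1b, -0.061 to 0.011 for eif4ebp2, -0.24 to 0.35 for eif4ebp3, -0.025 to 0.18 for eef1a1l1, -0.83 to 0.18 for eef1a2, -0.012 to 0.23 for eef1b2, -0.0054 to 0.14 for eef1g, -0.22 to 0.071 for eef2a.1, -0.051 to 0.30 for eef2l2, -0.060 to 0.45 for eif2b5, -0.11 to 0.15 for eif4eb and -0.18 to 0.052 for eif4g2a. The log2 fold change of trdmt1 ran from -1.01 to -0.40.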

Other observations

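The steps after elongation, and the enzymes that modify the factors, held no gene that passed the test. The 5 tested genes of termination and ribosome rescue had log2 fold changes from -0.022 to 0.17. Among them etf1b, for the release factor that reads stop codons, stood at 66.1, 64.3 and 71.0 RPKM in the knockouts, against 69.6, 54.4 and 66.7 RPKM in the controls. Of 9 genes for enzymes that modify eIF5A and eEF2, 5 had a positive log2 fold change and 0 passed. The gene dhps, for the first enzyme of hypusine synthesis on eIF5A, stood at 6.74, 6.55 and 8.04 RPKM in the knockouts, against 5.94, 5.25 and 5.93 RPKM in the controls (log2 fold change 0.36, edgeR adjusted p = 0.72), with all knockouts above all controls. The gene dph6, for the last step of diphthamide synthesis on eEF2, stood at 3.15, 3.00 and 3.51 RPKM in the knockouts, against 2.13, 1.95 and 2.66 RPKM in the controls (log2 fold change 0.56, edgeR adjusted p = 0.626), also without overlap. The other 4 of the 9 genes were negative, dph2 and dph3 the most so, at -0.49 and -0.44 with overlapping groups. The median over the 9 genes was 0.0011.

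Translation factors of mitochondria, a machinery separate from the cytosolic one, and those of selenocysteine insertion were tested for 12 genes, and 0 passed. The median log2 fold change was 0.069. The gene tufm, for the mitochondrial counterpart of eEF1A, stood at 57.0, 56.6 and 51.5 RPKM in the knockouts, against 60.9, 56.3 and 53.3 RPKM in the controls (log2 fold change -0.0063). The gene mrrf, for the mitochondrial ribosome recycling factor, stood at 13.9, 12.6 and 11.6 RPKM in the knockouts, against 8.24, 8.83 and 10.9 RPKM in the controls, with all knockouts above all controls (log2 fold change 0.48, edgeR adjusted p = 0.615). The most negative log2 fold change of the 12 genes was -0.30, for tsfm (edgeR adjusted p = 0.763). Its knockouts lay below all controls by RPKM, but the groups overlapped on TMM-scaled counts.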
